A study of Homo sapiens with 6 samples.

Results

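The mesenchymal matrix and surface proteins VIM, FN1, SPARC, TNC, POSTN, DCN, THBS1, LOX, NT5E and FAP are 10 genes chosen by name, with earlier results of these data known. Each was read by all probe sets that carry its symbol and no other in the probe annotation. These were 10 of 19775 genes and 40 of 54613 probe sets. They were measured in MCF10A, a human breast epithelial line that does not form tumours. A set of 3 Affymetrix arrays held MCF10A cells with C/EBPbeta-2, a form of the leucine zipper transcription factor that the gene CEBPB encodes, and 3 held MCF10A cells alone, called control. All cells grew in the same serum-containing medium with insulin, hydrocortisone, epidermal growth factor and cholera toxin, and no further treatment is named. The samples are labelled as biological replicates, but no separate cultures are described, and p-values therefore measure only the spread between these samples. The means of adding C/EBPbeta-2, whether the cells are 1 clone and whether the control carried an empty vector are not given in the sources used here.

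These proteins are read as signs of a mesenchymal state, in which epithelial cells loosen their contacts, change their cytoskeleton and lay down a different matrix. Vimentin (VIM) is an intermediate filament protein. Fibronectin (FN1) is a fibrous matrix protein that integrins bind, and lysyl oxidase (LOX) crosslinks collagen and elastin. SPARC, tenascin C (TNC), periostin (POSTN) and thrombospondin (THBS1) are matricellular proteins, which tune how cells bind the matrix, and decorin (DCN) is a small leucine-rich proteoglycan that binds collagen fibrils and growth factors. NT5E is a membrane enzyme that makes adenosine from extracellular AMP, and FAP is a membrane serine protease best known from activated fibroblasts.

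The values are log2 intensities of the deposited RMA signals, and a difference is C/EBPbeta-2 minus control. Each gene takes its values from the probe set that is brightest on average over the 6 arrays. A gene or probe set was called at a limma adjusted p under the threshold of 0.05, with Benjamini-Hochberg adjustment over all genes or all probe sets. Intervals are 95% intervals of the limma difference. The number of arrays limits the precision.

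C/EBPbeta-2 replicate 2 and control replicate 1 stood apart from the other 4 arrays. Their poly-A spike-in control probe sets averaged 3.83 and 3.92 (log2 intensity), against 7.27 to 8.45 on the others, so results are also given within each spike-in level. The same arrays had the largest excess of 3′ over 5′ signal for ACTB, a sign of RNA quality or labelling, at 1.32 and 1.48 (log2) against -0.04 to 0.64 on the others. They also had the lowest values of the 18S ribosomal RNA control probe sets, 5.62 and 8.05, against 10.09 or more on the others. The highest 18S values were on C/EBPbeta-2 replicate 1 (12.19) and control replicate 2 (12.17). The labels do not say what separated these arrays. CEBPB read 10.29, 10.50 and 11.38 on the C/EBPbeta-2 arrays, against 11.27, 11.38 and 11.37 on the control arrays, so this gene does not check the labels. Of 7 measured basal epithelial markers, 3 read higher and 4 lower with C/EBPbeta-2, and their summed linear intensity was 13280 to 19261 with C/EBPbeta-2 and 19623 to 27396 in control cells. The sum includes KRT14, the brightest of the 7 in control cells, and was not computed without it. KRT14 was the 1 called, beside 0.263% of all genes, with 10.33 in C/EBPbeta-2 cells and 13.34 in control cells (limma adjusted p = 0.0347). The differences of the other 6 ran from -0.96 (CDH3) to 1.17 (LAMB3), and KRT5 averaged 12.51 with C/EBPbeta-2 and 12.64 in control cells.

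FAP fell with C/EBPbeta-2, and it was the only 1 of the 10 genes called. Another 4 had groups that did not overlap and were not called: SPARC and NT5E read higher with C/EBPbeta-2, and DCN and POSTN read lower. FN1, LOX, TNC, THBS1 and VIM had overlapping groups. The genes thus lay on both sides of 0, with 6 higher and 4 lower, a median log2 difference of 0.62 and a range of -3.21 to 2.53. Over all 19775 genes the median was 0.01. The 1 called gene of 10 stands beside 0.263% of all genes called (0.0961% higher and 0.167% lower). The 5 of 10 genes without overlap, 2 higher and 3 lower, stand beside 8.63% of all genes (4.62% higher and 4.01% lower). The same 5 genes had an unadjusted limma p under 0.05, beside 5.4% of all genes (2.66% higher and 2.74% lower). Because the genes were chosen with earlier results of these data known, these shares are not a test of the 10 genes.

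**Figure D1:**
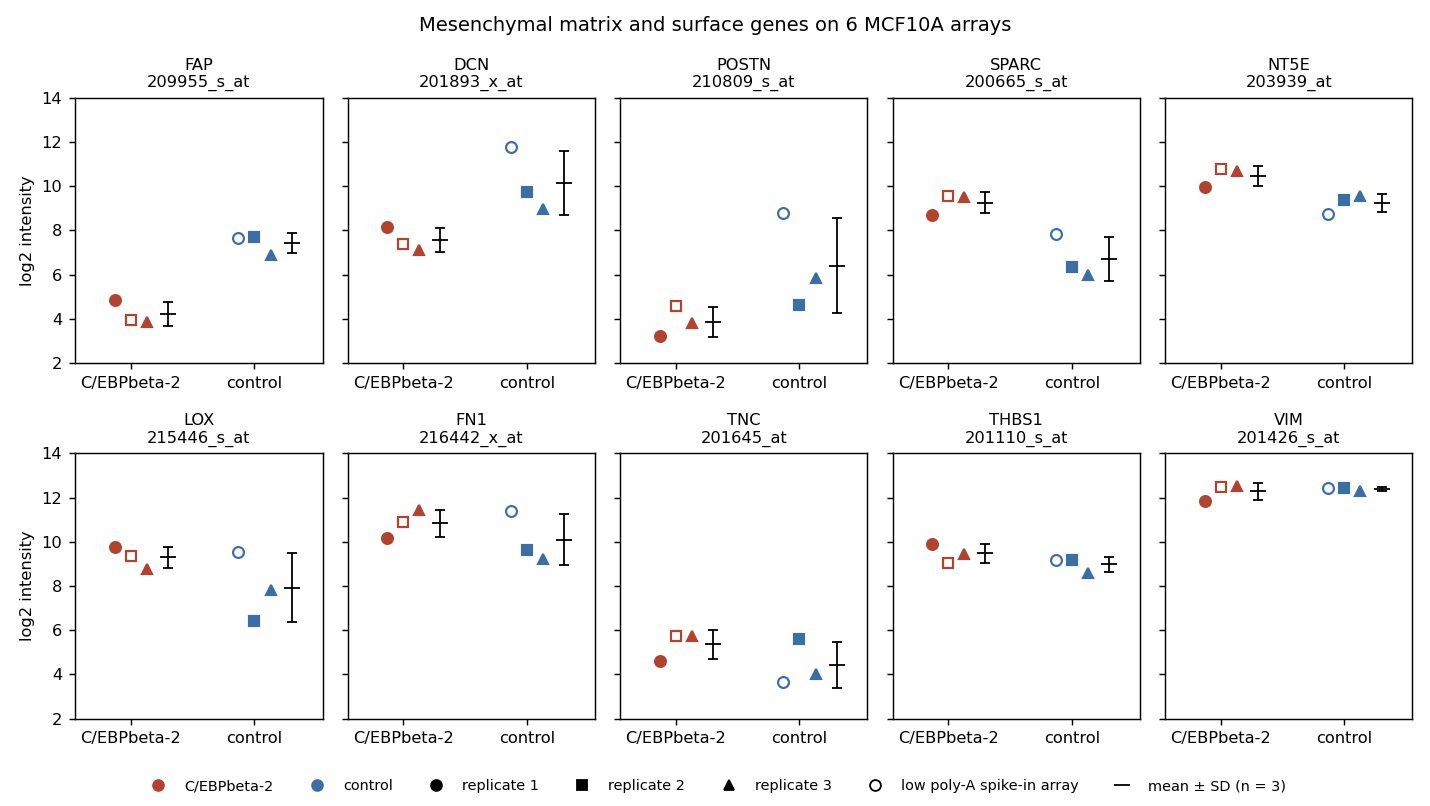
Log2 intensity of the 10 genes on each array, at the brightest probe set of each gene. Left points are the 3 C/EBPbeta-2 arrays and right points the 3 control arrays, open symbols are the arrays of low poly-A spike-in level, and bars are the mean and SD (n = 3). The groups do not overlap for FAP, DCN, POSTN, SPARC and NT5E.

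Upstream sequence is shown for 3 genes whose groups did not overlap, because the study adds a transcription factor. RefSeq windows of the 250 bases before a start of the gene (GRCh38.p14) were given for 8 of the 10 genes, LOX with 3 windows. The LOX windows at chr5:122077224-122077473 and chr5:122077175-122077424 overlap each other. Both lie downstream of the other LOX window, so the windows counted below are not all separate. FAP and DCN had none. The sequences run 5′ to 3′ on the strand of the gene, and capitals mark a match to the AP-1 letters TGANTCA.
SPARC, chr5:151686916-151687165, strand -: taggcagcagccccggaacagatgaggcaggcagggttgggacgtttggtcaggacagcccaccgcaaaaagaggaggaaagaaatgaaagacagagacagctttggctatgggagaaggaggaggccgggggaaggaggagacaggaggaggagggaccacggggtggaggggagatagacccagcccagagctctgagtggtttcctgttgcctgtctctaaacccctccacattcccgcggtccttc
NT5E, chr6:85449833-85450082, strand +: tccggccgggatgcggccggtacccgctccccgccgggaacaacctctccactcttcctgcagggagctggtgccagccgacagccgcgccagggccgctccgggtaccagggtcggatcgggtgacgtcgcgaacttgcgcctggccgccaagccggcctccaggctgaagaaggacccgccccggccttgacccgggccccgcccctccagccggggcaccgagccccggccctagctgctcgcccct
POSTN, chr13:37598769-37599018, strand -: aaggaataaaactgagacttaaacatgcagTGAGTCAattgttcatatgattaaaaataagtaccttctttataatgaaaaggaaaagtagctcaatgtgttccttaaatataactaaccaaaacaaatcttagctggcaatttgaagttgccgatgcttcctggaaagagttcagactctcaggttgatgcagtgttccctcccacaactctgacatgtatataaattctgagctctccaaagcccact
The windows were searched on both strands for the C/EBP letters TTGCNNAA and the AP-1 letters TGANTCA. The C/EBP letters were in 0 of the 10 windows, beside 9.05% of 35116 windows of the same length. The AP-1 letters were in 1 of the 10, that of POSTN, beside 6.57% of all windows. The match began 220 bases before the start of POSTN. A missing match says only that these letters are not in these bases, and nothing about binding of either factor.

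The intermediate filament gene VIM had the difference nearest 0 of the 10 genes. Its brighter probe set (201426_s_at) had 11.83, 12.47 and 12.54 on C/EBPbeta-2 replicates 1 to 3, against 12.46, 12.45 and 12.30 on control replicates 1 to 3. C/EBPbeta-2 replicate 1 was the lowest array, and the other 5 read 12.30 to 12.54. The log2 difference was -0.12 (SE 0.22, interval -0.65 to 0.41, limma adjusted p = 1.00). The other probe set of VIM (1555938_x_at) read between 2.91 and 3.09 on all 6 arrays. Its groups did not overlap, and its difference was -0.11 (SE 0.13).

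FN1, the integrin-binding fibre protein, varied more within groups than between them. Probe set 216442_x_at read 10.18, 10.89 and 11.43 on the C/EBPbeta-2 arrays, against 11.40, 9.65 and 9.23 on the control arrays. Control replicate 1 lay with the highest C/EBPbeta-2 array, and the other 2 control arrays lay below all C/EBPbeta-2 arrays. The log2 difference was 0.74 (SE 0.60, limma adjusted p = 1.00). It was -0.51 between the 2 arrays of low spike-in level and 1.37 between the 4 of high level.

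The 7 probe sets of FN1 all read higher on average with C/EBPbeta-2, by 0.00 to 0.84 (log2), and 0 of them had groups without overlap. The 4 bright ones gave differences of 0.74 to 0.84 and placed the arrays alike, and since they read 1 transcript they are not separate support. Probe set 214701_s_at, at 5.29 to 6.34 with C/EBPbeta-2 and 5.17 to 6.97 in control cells, gave 0.00 (SE 0.52). The remaining 2 stayed at 2.74 to 3.63 on every array.

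LOX, the collagen crosslinking enzyme, had its highest control value on control replicate 1, as FN1 did. The other 2 control arrays stood in the reverse order. Probe set 215446_s_at read 9.75, 9.35 and 8.79 on the C/EBPbeta-2 arrays, against 9.53, 6.43 and 7.81 on the control arrays. Control replicate 1 again lay within the C/EBPbeta-2 range, and the other 2 control arrays lay below it. The log2 difference was 1.37 (SE 0.74, interval -0.41 to 3.16, limma adjusted p = 1.00). Within the low spike-in level it was -0.18, and within the high level it was 2.15. The other 2 probe sets gave 1.35 (204298_s_at) and 0.90 (213640_s_at), with overlapping groups in both. At 213640_s_at the difference was 0.27 without C/EBPbeta-2 replicate 1. Without control replicate 1 the LOX difference was 2.18, and without control replicate 2 it was 0.63, neither called.

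Of the matricellular genes, SPARC had the highest difference of the 10 genes. Probe set 200665_s_at read 8.70, 9.57 and 9.50 on the C/EBPbeta-2 arrays, against 7.85, 6.35 and 5.98 on the control arrays. The lowest C/EBPbeta-2 array stood above the highest control array, which was control replicate 1. The level with C/EBPbeta-2 was 5.78-fold that of control cells, a log2 difference of 2.53 (SE 0.51, interval 1.30 to 3.76), and it was not called (limma adjusted p = 0.216).

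A second bright reading of SPARC came from probe set 212667_at. It had 6.81, 8.71 and 8.04 with C/EBPbeta-2, against 6.54, 3.99 and 3.81 in control cells. Here C/EBPbeta-2 replicate 1 and control replicate 1 were the nearest arrays of the groups, 0.28 apart. Its difference was 3.08 (SE 0.82, limma adjusted p = 0.646 over all probe sets). At 200665_s_at the difference was 1.72 within the low spike-in level and 2.93 within the high level. SPARC was called in 0 of 17 alternatives, with adjusted p from 0.0806, without control replicate 1, to 0.690.

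POSTN, a matricellular protein that binds collagen and fibronectin, read lower with C/EBPbeta-2. Probe set 210809_s_at had 3.24, 4.58 and 3.80 on the C/EBPbeta-2 arrays, against 8.78, 4.62 and 5.83 on the control arrays. Control replicate 2 was 0.04 above C/EBPbeta-2 replicate 2, and control replicate 1 was far above every other array. The log2 difference was -2.54 (SE 1.02, interval -4.98 to -0.10, limma adjusted p = 0.885). It was -4.20 within the low spike-in level, -1.71 within the high level and -1.35 without control replicate 1. The size of the difference is uncertain, because C/EBPbeta-2 replicates 1 and 3 read below the medians of their arrays (4.52 and 4.48).

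The 1555778_a_at probe set of POSTN showed the same order of arrays in control cells. It read 3.19, 3.17 and 2.74 with C/EBPbeta-2, against 6.73, 3.52 and 4.07 in control cells, a difference of -1.74 (SE 0.79) that was -0.76 without control replicate 1. All its C/EBPbeta-2 values lay below the medians of their arrays (4.46 to 4.52). The remaining 2 probe sets read 2.25 to 2.89 on all 6 arrays and differed by -0.05 and -0.04. With the mean of the 4 probe sets, POSTN differed by -1.09.

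TNC, a matricellular protein of wounds and tumour stroma, had overlapping groups. Probe set 201645_at read 4.60, 5.75 and 5.72 on the C/EBPbeta-2 arrays, against 3.68, 5.61 and 4.02 on the control arrays. Control replicate 2 lay beside the higher C/EBPbeta-2 arrays, and the difference was 0.92 (SE 0.57, interval -0.43 to 2.28, limma adjusted p = 1.00). It was 2.08 within the low spike-in level and 0.35 within the high level. The other 2 probe sets of TNC read 2.60 to 3.03 on all arrays.

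THBS1, a matricellular protein that can activate latent TGF-beta, gave readings that split by probe set. Probe set 201110_s_at read 9.92, 9.06 and 9.45 on the C/EBPbeta-2 arrays, against 9.19, 9.19 and 8.58 on the control arrays, with a difference of 0.49 (SE 0.28, interval -0.19 to 1.17, limma adjusted p = 1.00). Probe set 201109_s_at instead had 10.16, 8.26 and 7.79 with C/EBPbeta-2, against 8.34, 9.88 and 7.81 in control cells. C/EBPbeta-2 replicate 1 and control replicate 2 were thus high together, above all remaining arrays, and the difference between groups was 0.06 (SE 0.76).

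The same 2 arrays were highest at 201108_s_at, which read 9.96, 8.01 and 7.73 with C/EBPbeta-2, against 8.09, 9.75 and 7.69 in control cells. They were also highest at 201107_s_at, which read 6.99, 5.03 and 4.54 with C/EBPbeta-2, against 5.22, 6.77 and 4.87 in control cells. These are the 2 arrays with the highest 18S ribosomal RNA values, and the part of that difference in the THBS1 readings was not tested. The 7 probe sets of THBS1 differed by -0.21 to 0.49, and all had overlapping groups.

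**Figure D2:**
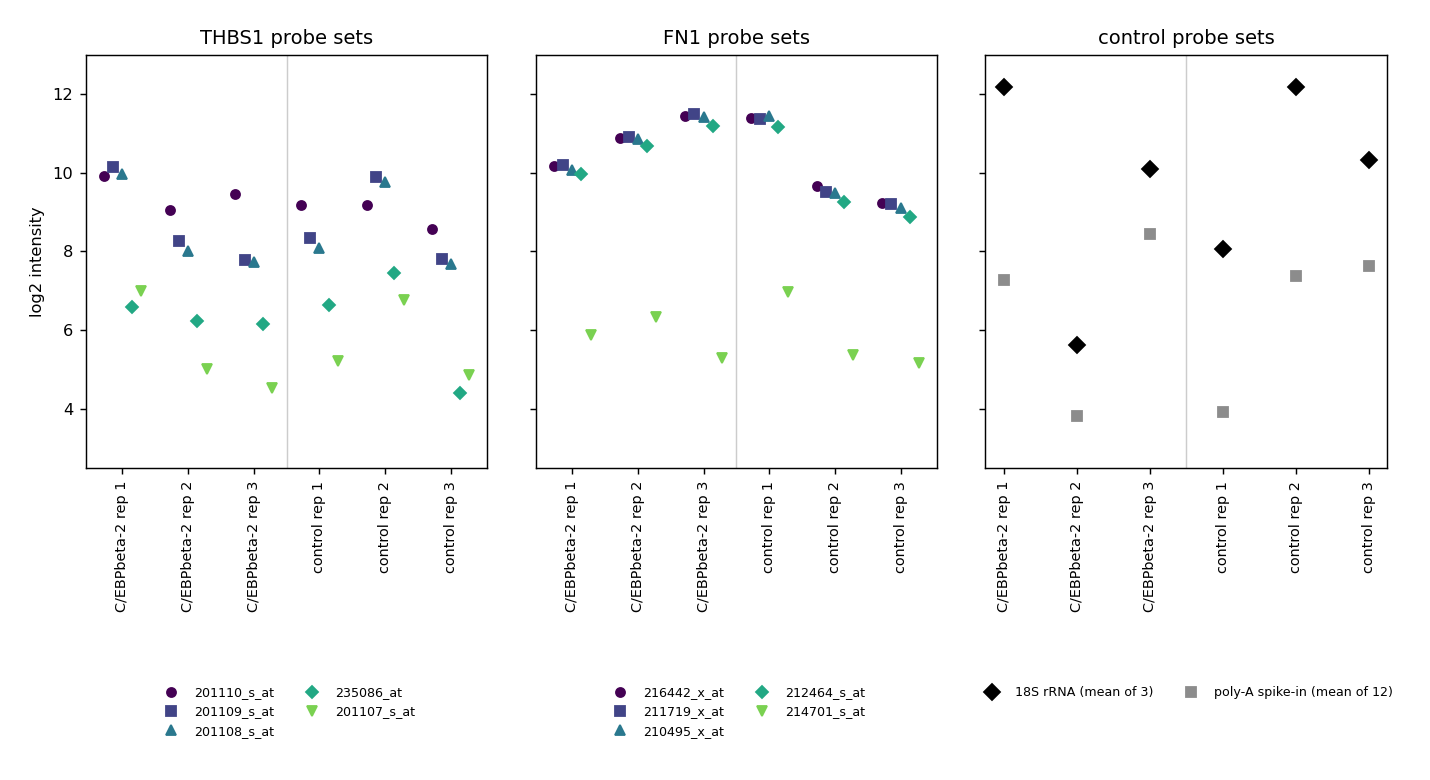
Log2 intensity on each array of the 5 brightest THBS1 probe sets, the 5 brightest FN1 probe sets, and the control probe sets of 18S ribosomal RNA and the poly-A spike-in RNA. C/EBPbeta-2 arrays are left of the grey line and control arrays right of it. The 201109_s_at, 201108_s_at and 201107_s_at probe sets of THBS1 are highest on C/EBPbeta-2 replicate 1 and control replicate 2, as is 18S, while 4 FN1 probe sets are high on control replicate 1.

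DCN, the small proteoglycan, read lower on every C/EBPbeta-2 array. Probe set 201893_x_at had 8.16, 7.38 and 7.11 on the C/EBPbeta-2 arrays, against 11.76, 9.74 and 8.98 on the control arrays. The highest C/EBPbeta-2 array was below the lowest control array, and control replicate 1 was the highest of all. The level in control cells was 6.09-fold that with C/EBPbeta-2, a log2 difference of -2.61 (SE 0.70, interval -4.29 to -0.92), which was not called (limma adjusted p = 0.445). It was -4.38 within the low spike-in level and -1.72 within the high level.

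Groups without overlap were found at 4 of the 7 probe sets of DCN. Besides 201893_x_at, these were 211813_x_at with a difference of -2.19 (SE 0.73), 211896_s_at with -2.36 (SE 0.84) and 209335_at with -1.69 (SE 0.80). Without control replicate 1 they were -1.36 at 211813_x_at and -1.35 at 211896_s_at. At 209335_at the arrays had 4.81, 4.28 and 4.54 with C/EBPbeta-2, against 8.24, 5.29 and 5.17 in control cells, and without control replicate 1 the difference was -0.68. There the difference was -3.96 within the low spike-in level and -0.55 within the high level. The 3 dim probe sets read 2.77 to 4.17 on all arrays and differed by -0.26 to 0.03. With the mean of the 7 probe sets, DCN differed by -1.31.

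The surface enzyme NT5E read higher on every C/EBPbeta-2 array. Probe set 203939_at had 9.96, 10.79 and 10.70 on the C/EBPbeta-2 arrays, against 8.76, 9.38 and 9.58 on the control arrays. The groups were 0.38 apart at their nearest arrays. The level with C/EBPbeta-2 was 2.36-fold that of control cells, a log2 difference of 1.24 (SE 0.31, interval 0.50 to 1.98, limma adjusted p = 0.362).

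All 4 probe sets of NT5E differed in the same direction, by 0.89 to 1.24. The dim 227486_at had 5.15, 5.21 and 5.37 with C/EBPbeta-2, against 3.97, 4.69 and 4.39 in control cells, again with no overlap and a difference of 0.89 (SE 0.21). At 1553995_a_at and 1553994_at the groups overlapped, and control replicate 2 was the highest control array at both (8.60 and 7.84). For 203939_at the difference was 2.03 within the low spike-in level and 0.85 within the high level.

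FAP, the surface serine protease, had the clearest separation of the 10 genes. Its only probe set (209955_s_at) read 4.84, 3.94 and 3.86 on the C/EBPbeta-2 arrays, against 7.67, 7.73 and 6.90 on the control arrays. The groups were 2.05 apart at their nearest arrays, and each array of low spike-in level lay beside another array of its group. The log2 difference was -3.21 (SE 0.35, interval -4.05 to -2.38, limma adjusted p = 0.0327 over all genes), nominally 9.27-fold. The size of that fold is uncertain, because C/EBPbeta-2 replicates 2 and 3 read below the medians of their arrays (4.46 and 4.48), and with 16 added to the intensities the difference was -2.43. In bulk RNA, fewer cells that express FAP and less FAP RNA per cell cannot be told apart.

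The FAP call depended on how many features shared the adjustment. Over all 54613 probe sets its adjusted p by limma was 0.0602, so that 0 of the 40 probe sets were called, beside 0.0659% of all probe sets (0.0275% higher and 0.0385% lower). The difference was -3.72 within the low spike-in level and -2.96 within the high level. The gene call was lost without any 1 of the 6 arrays, with adjusted p from 0.0533 to 0.159 and differences from -3.53 to -3.04. It was lost also without both arrays of low spike-in level (limma adjusted p = 0.323) and with 16 added to the intensities before log2 (0.0924).

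Over the 40 probe sets the median log2 difference was 0.08, and over all probe sets it was 0.00. With C/EBPbeta-2, 24 of the 40 read higher and 16 lower. The groups did not overlap for 12 of the 40, 4 higher and 8 lower, beside 7.62% of all probe sets (3.87% higher and 3.75% lower). At an unadjusted limma p under 0.05 there were 10 of the 40, 5 higher and 5 lower, beside 3.98% of all probe sets (1.92% higher and 2.06% lower). Probe sets of 1 gene read the same RNA, so these counts come from few genes: of the 12, DCN had 4, POSTN, SPARC and NT5E had 2 each, and FAP and VIM had 1 each.

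**Figure D3:**
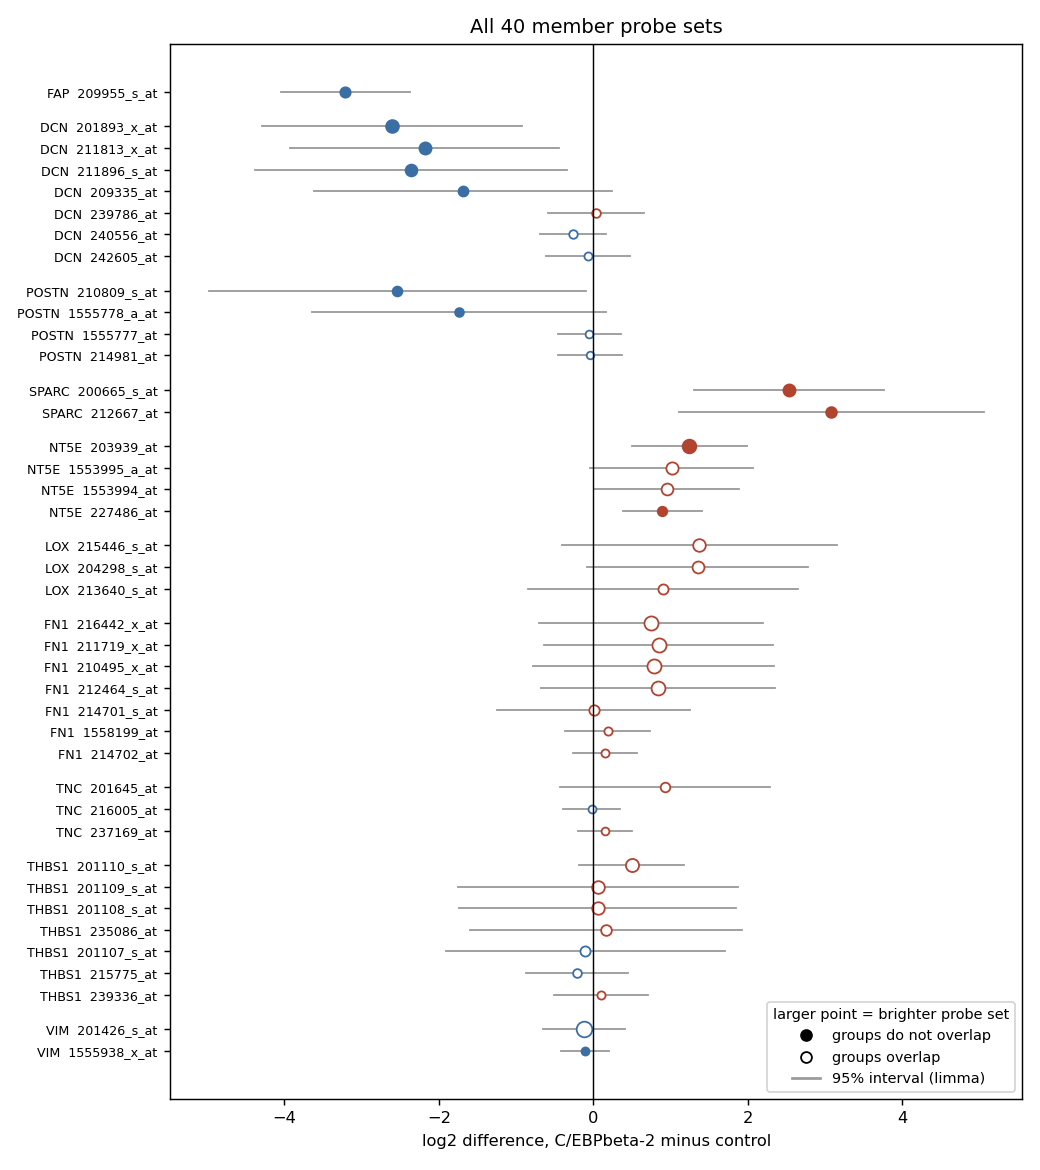
Log2 difference, C/EBPbeta-2 minus control, of all 40 probe sets, with 95% intervals from limma. Filled points are probe sets whose groups do not overlap (12), and larger points are brighter on average. Bright probe sets of FAP, DCN and POSTN lie left of 0 and all those of SPARC, NT5E and LOX right of it. Most dim probe sets lie near 0, but not 1555778_a_at of POSTN (-1.74) or 227486_at of NT5E (0.89).

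Control replicate 1 was the highest or lowest control array for most of these genes. Of the 10 genes, 7 had their highest control value on this array: VIM, FN1, SPARC, POSTN, DCN, THBS1 and LOX. TNC and NT5E had their lowest control value there. For VIM (12.46 and 12.45) and THBS1 (both 9.19), control replicate 2 was nearly as high. The share of all genes with their highest control value on control replicate 1 was not counted. This array also had the low spike-in level, and C/EBPbeta-2 replicate 2, the other such array, was the highest of its group for 4 genes (SPARC, TNC, POSTN and NT5E). Such places were not limited to the low level. C/EBPbeta-2 replicate 1, of high level, was the highest of its group for 4 genes and the lowest for 6. Control replicate 3, also of high level, was the highest of its group for 1 gene and the lowest for 6. The differences of FAP, SPARC, NT5E, DCN, POSTN and TNC had 1 direction within both levels. Those of FN1, LOX and THBS1 were below 0 at the low level and above 0 at the high one, and VIM gave 0.01 at the low level and -0.19 at the high one. With only the 4 arrays of high level, 8 of the 10 genes had groups without overlap, beside 24% of all genes, and 21 of the 40 probe sets, beside 23% of all probe sets. Overlap is rarer among fewer arrays. The part of the spike-in level in these differences was not tested.

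**Figure D4:**
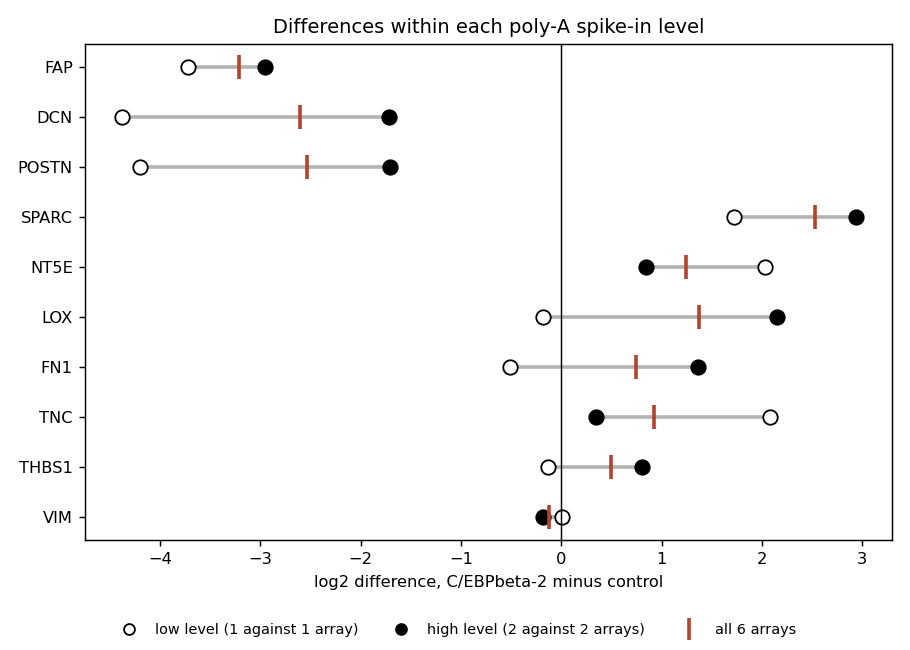
Log2 difference, C/EBPbeta-2 minus control, of the 10 genes within the low poly-A spike-in level (open points, 1 array against 1), within the high level (filled points, 2 against 2) and over all 6 arrays (red bars). FAP spans -3.72 to -2.96, and the FN1, LOX, THBS1 and VIM spans cross 0.

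Fibroblasts are the cell type best known for DCN, POSTN and FAP, and its markers were read beside these genes. Of 8 measured markers, 7 of which are also in another list here, 0 were called, beside 0.263% of all genes. At an unadjusted limma p under 0.05 there were 0, beside 5.4% of all genes. With shares that low, 0 of 8 says little. The markers read higher in 6 cases and lower in 2, and their median difference was 0.13. Their summed linear intensity was 227 to 299 on the C/EBPbeta-2 arrays and 225 to 281 on the control arrays. COL1A1, a chain of type I collagen, averaged 6.70 with C/EBPbeta-2 and 6.84 in control cells. COL3A1 averaged 3.54 and 3.79, PDGFRB 4.21 and 3.88, and LUM 2.74 and 2.71, in the same order. No detection calls were used here, and the part of any other cell type in these differences was not tested.

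The genes around the 10 were read in 6 lists, and 0 of their 98 measured genes were called by limma, beside 0.263% of all genes. At an unadjusted p under 0.05 there were 10 of the 98, beside 5.4% of all genes. The lists were dimmer than the 10 genes, with median levels of 4.64 to 8.17 with C/EBPbeta-2 against 9.28. Among 13 collagens, 1 had groups without overlap, beside 8.63% of all genes. It was COL16A1, which read 1.10 (SE 0.30) higher with C/EBPbeta-2. COL12A1 differed by -0.88 (SE 0.45) and COL1A2 by 0.39 (SE 0.30). The list's median was -0.10, with 4 genes above 0 and 9 below.

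The nearest relatives of the 10 genes had 0 called genes, beside 0.263% of all genes. Of 26, such as other lysyl oxidases, thrombospondins and leucine-rich proteoglycans, the median difference was -0.03 and the range -0.77 to 0.48. LOXL1, a lysyl oxidase of elastic fibres, read 3.48, 3.78 and 3.69 with C/EBPbeta-2, against 4.55, 4.18 and 4.53 in control cells, without overlap (difference -0.77, SE 0.18, limma adjusted p = 0.287). Its C/EBPbeta-2 values lay below the medians of their arrays (4.46 to 4.52). COMP differed by -0.50, and TGFBI, the closest relative of POSTN, by 0.48 (SE 0.25).

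Elastic fibre and other matrix glycoproteins held the largest difference of the 6 lists. EFEMP1, a fibulin of the extracellular matrix, read 6.69, 9.23 and 6.49 with C/EBPbeta-2, against 11.75, 10.59 and 10.50 in control cells. The groups did not overlap, C/EBPbeta-2 replicate 2 was the highest of its group, and the difference was -3.48 (SE 0.77, limma adjusted p = 0.270). It was called in 2 of 16 alternatives, with adjusted p from 0.0241 to 0.706. LTBP1, which holds latent TGF-beta in the matrix, differed by -1.48 (SE 0.37) and the fibrillin FBN1 by -1.47 (SE 0.69, groups overlapping). The list's median was 0.09, with 10 genes above 0 and 8 below. Of the 18 genes 6 had groups without overlap, 2 higher and 4 lower, beside 8.63% of all genes (4.62% higher and 4.01% lower). The highest difference was that of VCAN, the proteoglycan versican, at 1.44 (SE 0.44, groups not overlapping, limma adjusted p = 0.573), which is named here after its values were seen.

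Receptors of these matrix proteins were read in a list of 14, and 0 were called, beside 0.263% of all genes. Over the 14, the median difference was 0.01, with 7 above 0 and 7 below. SDC1, a heparan sulfate proteoglycan of the epithelial surface, read 11.33, 12.12 and 11.76 with C/EBPbeta-2, against 10.98, 10.82 and 10.31 in control cells, a difference of 1.03 (SE 0.27, limma adjusted p = 0.412). SDC4 and the integrin chain ITGAV each differed by 0.58 with overlapping groups.

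In the pathway of NT5E, which handles extracellular ATP and adenosine, 1 of 12 measured genes read higher and 11 lower, with a median of -0.15. Over all 19775 genes, 9516 read lower. Of the 12, only 1, ENTPD2, had an unadjusted limma p under 0.05, beside 5.4% of all genes. ENTPD2, an enzyme that breaks down extracellular ATP, read 4.82, 4.32 and 4.83 with C/EBPbeta-2, against 5.32, 5.86 and 5.63 in control cells (difference -0.95, SE 0.22, limma adjusted p = 0.316). The adenosine receptor ADORA2B differed by -0.27 (SE 0.49) and the nucleoside transporter SLC28A3 by -0.27 (SE 0.17).

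Among 15 other mesenchymal surface and cytoskeletal genes the median difference was 0.19, with 11 above 0 and 4 below. PDPN, the surface glycoprotein podoplanin, read 9.42, 9.25 and 9.35 with C/EBPbeta-2, against 8.54, 7.83 and 7.70 in control cells, without overlap (difference 1.31, SE 0.24, limma adjusted p = 0.171). TAGLN, an actin-binding protein of contractile cells, differed by -1.18 (SE 0.47) and S100A4 by -0.71 (SE 0.40), both with overlapping groups.

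**Figure D5:**
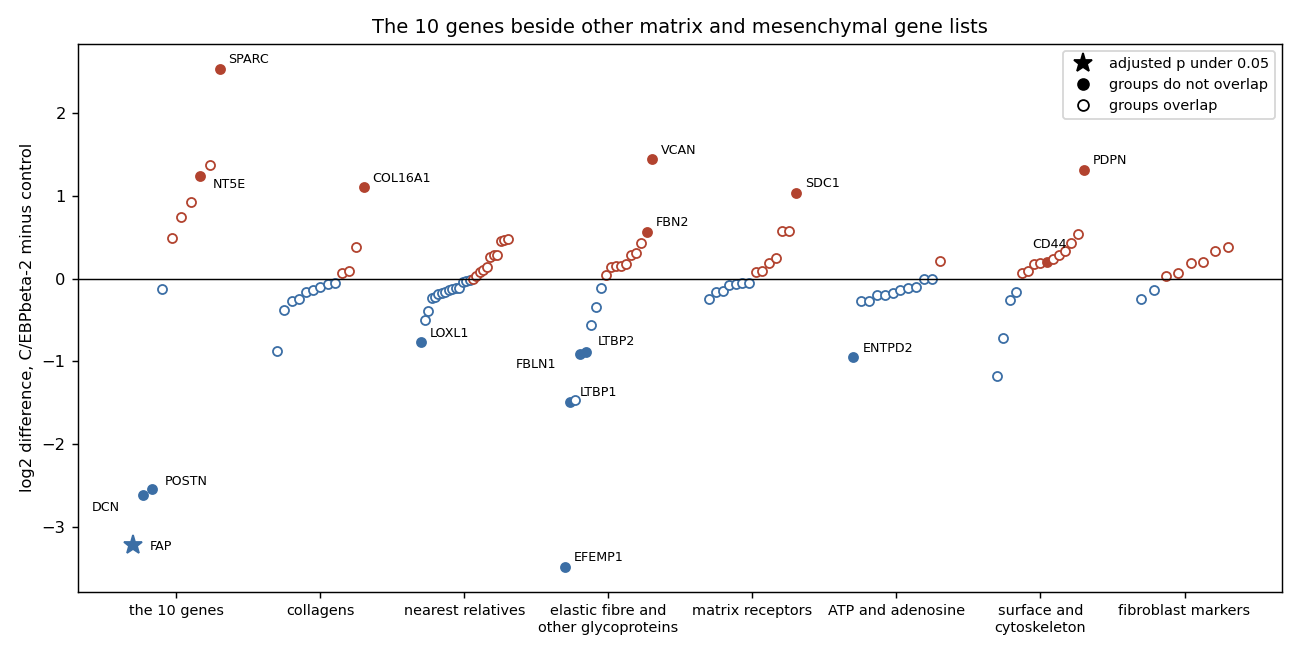
Log2 difference, C/EBPbeta-2 minus control, of each measured gene in 8 lists, 1 point a gene. Filled points, with gene names, have groups that do not overlap, and the star (FAP) is the gene with an adjusted p under 0.05. The 10 genes reach from -3.21 to 2.53, while most genes of the other lists lie near 0, with EFEMP1 at -3.48. The other lists are dimmer, with median levels of 4.21 to 8.17 with C/EBPbeta-2 against 9.28 for the 10 genes. The spreads are therefore not compared at like brightness.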

How the data were processed

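Total RNA of 3 MCF10A samples with C/EBPbeta-2 and 3 control samples was labelled with biotin and hybridised to 1-colour Affymetrix arrays, per the labels' protocols. The deposited values are linear intensities of probe sets, made with RMA (version not stated) per the submitters' processing notes. Their log2 was used as it stood, without a pseudocount or renormalization. Of 54675 probe sets, 62 controls (AFFX) were set aside. The annotation gave 1 symbol for 41091 probe sets, several for 1801 and none for 11721. The 10 gene IDs all matched the RefSeq gene reference.

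limma 3.58.1 (lmFit, eBayes) in R 4.3.3 was fitted to all probe sets over the 6 arrays without covariates, two-sided. Variances were moderated over all probe sets, and p-values were adjusted by Benjamini-Hochberg over probe sets or over genes. The fit was tested on simulated data. Python 3.11.15 and matplotlib 3.10.9 drew the plots. All 10 genes and their probe sets are named, with every called gene and up to 3 others of largest difference in each further list. The genes and lists were chosen with earlier results of these data known. Of the basal markers 3 were not analysed here. Alternatives left out arrays, added a replicate block or a spike-in term, or changed the normalization, the pseudocount, the filter, the variance model or the probe set rule.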

Additional observations from a re-analysis of the deposited data

How the results depend on the processing

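The number of genes called was 52. It was 122 with array weights, 17 with log2 of the intensity plus 16, and 12 without both arrays of low spike-in level. Leaving out 1 array gave 7 to 57. The number of probe sets called was 36, and 122 with array weights, 78 with dim probe sets left out (mean log2 under 4.52), 67 with a trended and robust prior variance, 17 with log2 of the intensity plus 16 and 6 without both low spike-in arrays. Leaving out 1 array gave 5 to 37. The replicate number did not pair replicates 1 and 2. Deviations from the group means correlated at -0.45, -0.55 and 0.42 for replicates 1, 2 and 3. Only for replicate 3 was this the best match. Replicate 1 with C/EBPbeta-2 instead correlated best with control replicate 2 (0.64) and replicate 2 with control replicate 1 (0.66). Both pairs also had like spike-in values. The 18S values were alike in the former pair (12.19 and 12.17) but not in the latter (5.62 and 8.05). No fit used that pairing, since nothing in the labels gives it, so calls lost under the replicate block do not show weaker effects. With the replicate block limma called 0 genes and 0 probe sets (847 and 1701 at an unadjusted p under 0.05), so KRT14 was not called either, and FAP had a limma adjusted p of 0.157. Of the 10 genes 1 was called, FAP. With the replicate block 0 were called, as with log2 of the intensity plus 16 (FAP difference -2.43, limma adjusted p = 0.0924). Leaving out both low spike-in arrays gave 0, as did each of the 6 fits without 1 array. Dropping every probe set whose name ends in _x_at or _s_at also gave 0. That rule leaves out VIM, LOX and FAP, which have no other probe sets. Of the 40 probe sets 0 were called, and 1, FAP, with dim probe sets left out (adjusted p = 0.0264), a trended and robust prior (0.0297) or array weights (0.0267). The 5 genes without overlap became 8, and the 12 probe sets 21, without both low spike-in arrays, an alternative chosen after seeing the data. Of the 10 genes only VIM changed sign in any alternative, with 0.0053 under array weights (also at 201426_s_at) and -0.25 to 0.10 with 1 array left out. Of the uncalled probe sets, 216005_at gave 0.052 without both low spike-in arrays, 0.00082 with arrays centred on their median, 0.015 with array weights and -0.12 to 0.043 with 1 array left out. Without both low spike-in arrays 1555777_at gave 0.073, 214981_at 0.031 and 242605_at 0.11. FN1 probe set 214701_s_at gave -0.12 with array weights and -0.022 with log2 of the intensity plus 16. With 1 array left out the range was -0.33 to 0.57 at 214701_s_at, -0.14 to 0.029 at 1555777_at, -0.17 to 0.049 at 214981_at, -0.17 to 0.24 at 239786_at and -0.25 to 0.044 at 242605_at. For THBS1 it was -0.65 to 0.66 at 201109_s_at, -0.64 to 0.68 at 201108_s_at, -0.73 to 0.80 at 235086_at, -0.84 to 0.47 at 201107_s_at, -0.41 to 0.090 at 215775_at and -0.13 to 0.33 at 239336_at. The cause of these shifts was not tested.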
